A study of Mus musculus with 6 samples.

Results

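Cadherins and protocadherins are cell-surface adhesion proteins. Their members were taken here as every gene whose symbol is Cdh followed by a number, or Pcdh followed by letters and numbers, which gave 91 genes of the 26049 in the deposited matrix. They were measured by single-nucleus RNA sequencing in 28650 hippocampal nuclei. All mice were male and carried the Tau P301S transgene of the PS19 line, so the sham controls carried it too. Their age is not stated in the labels. The study crossed sham surgery or a mild TBI (traumatic brain injury, made by controlled cortical impact over the right hemisphere) with an AAV (a viral vector) for GFP or VEGFC. Both sham libraries, one for each vector, came from the right hippocampus, and each vector after TBI gave a right and a left library, 6 in all. Each combination had 1 library, and neither the promoter of the vectors nor the number of animals behind a library is stated in the labels. P-values therefore rest only on the spread between these 6 libraries, pooled in part over genes, and that spread may be technical. In oligodendrocytes, choroid plexus epithelium and fibroblasts it came almost wholly from the trend over genes, not from each gene's own values.

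Classical cadherins bind a cadherin of the neighbouring cell in a calcium-dependent way. Inside the cell they hold p120-catenin and beta-catenin, which joins them through alpha-catenin to actin. Cdh2 is N-cadherin, the main classical cadherin of neural tissue, found at synapses, in astrocytes and in cells of the oligodendrocyte lineage. Type II cadherins and the delta protocadherins differ between neuron types and are known for sorting neurons and their connections. The clustered protocadherins are made from the alpha, beta and gamma gene clusters, whose many alternative first exons give single neurons different surface identities.

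The 35 members outside the clusters held 662803 UMIs (unique molecular identifiers, one per captured RNA molecule), and the 56 clustered members held 15636. The first set comprised 5 type I cadherins, 13 type II cadherins, 5 atypical ones, 4 delta1, 5 delta2 and 3 other protocadherins. The second comprised 13 alpha, 22 beta and 21 gamma genes. All 13 alpha and all 21 gamma genes share exon bases with another member in the GENCODE annotation, from 27.8% to 66.8% of a gene's exon bases, and so do 2 of the 22 beta genes. Reads in shared exons cannot be given to 1 isoform, so single alpha and gamma genes are uncertain. Their family sums are given below, but these and the total of the clustered members may lack such reads too. How many were left out was not tested, so sizes of different families should not be compared.

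Cdh2 was the member with the clearest difference between libraries, in oligodendrocytes, the myelin-forming glia. Its level there, in CPM (its UMIs per 1e+06 UMIs of the class in a library), was 399 in sham GFP right and 307 in sham VEGFC right. After TBI it was 102 in GFP right, 150 in GFP left, 166 in VEGFC right and 182 in VEGFC left. Both sham libraries lay above all 4 TBI libraries. The counts behind these levels were 195 and 127 UMIs in the sham libraries and 68, 67, 92 and 122 in the TBI libraries, in the same order. Cdh2 fell by 1.42 on the log2 scale in TBI right against sham right (SE 0.17, edgeR quasi-likelihood test, adjusted p = 1.75e-13). It was the only one of the 14 members tested in oligodendrocytes to pass, where 0.0997% of 8025 genes passed. On the injured animals' left side the fall against sham right was 1.07 (SE 0.16, edgeR adjusted p = 6.4e-07), a contrast added after the data were seen, in which 0.15% of genes passed and which shares the sham libraries with the first.

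**Figure D1:**
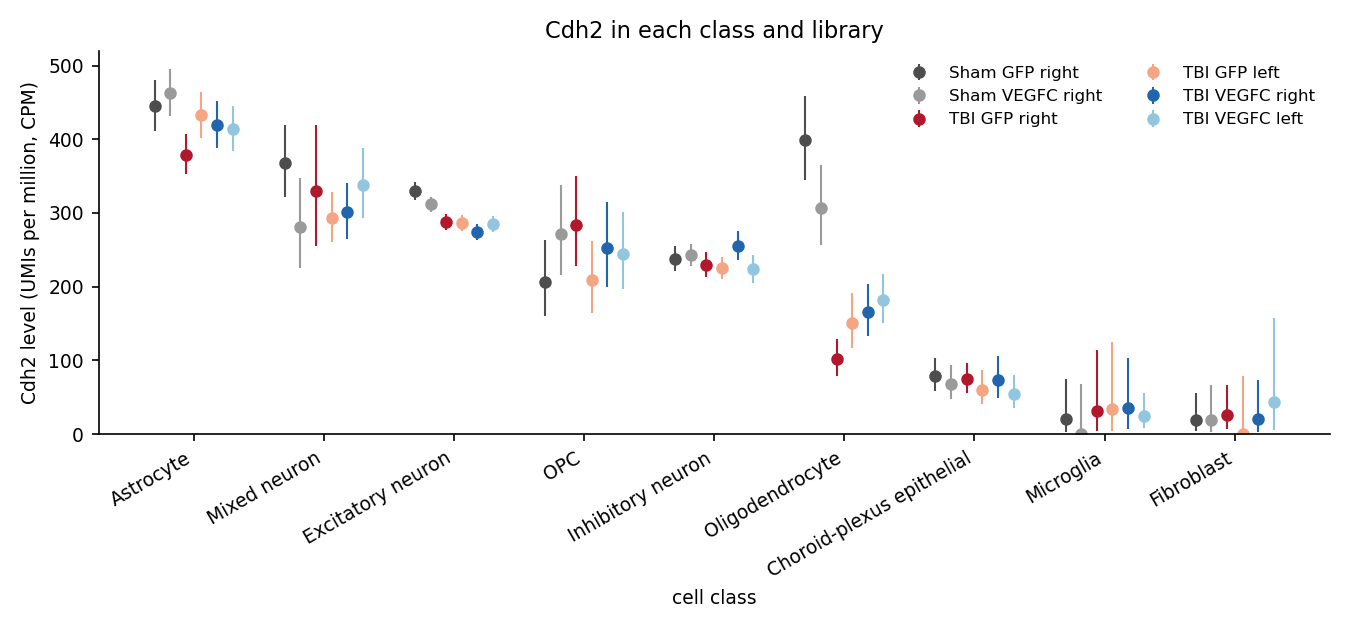
Cdh2 level in CPM (vertical axis, from 0) in each of the 9 cell classes, with 1 point per library and bars for the exact Poisson 95% interval, which covers counting error only. In oligodendrocytes the 2 sham libraries stand at 399 and 307 CPM and the 4 TBI libraries at 102 to 182. In astrocytes the sham libraries stand at 445 and 463 CPM, also above the TBI libraries, at 379 to 432.

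The share of oligodendrocyte nuclei with at least 1 Cdh2 UMI moved with the level. It was 34.6% of 332 nuclei in sham GFP right and 22.0% of 313 in sham VEGFC right. In the TBI libraries it was 12.6% of 476 in GFP right, 15.8% of 323 in GFP left, 17.8% of 388 in VEGFC right and 19.8% of 429 in VEGFC left. With each nucleus thinned to 1000 UMIs, a depth that every nucleus exceeded, the shares were 30.1%, 19.5%, 8.40%, 12.4%, 12.6% and 14.5%. Microglia, which had Cdh2 at the edge of detection, gave 2.46% at the same depth, with a median depth of 1260.5 UMIs per nucleus beside 1307 in oligodendrocytes, and the share in each library of oligodendrocytes lay above this. Nuclei with 3 or more Cdh2 UMIs numbered 21 and 17 in the sham libraries and 0, 4, 4 and 6 in the TBI libraries. No single nucleus held more than 7.46% of a library's Cdh2 UMIs in this class. Fewer nuclei with Cdh2 RNA and less of it per nucleus cannot be told apart at this depth.

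**Figure D2:**
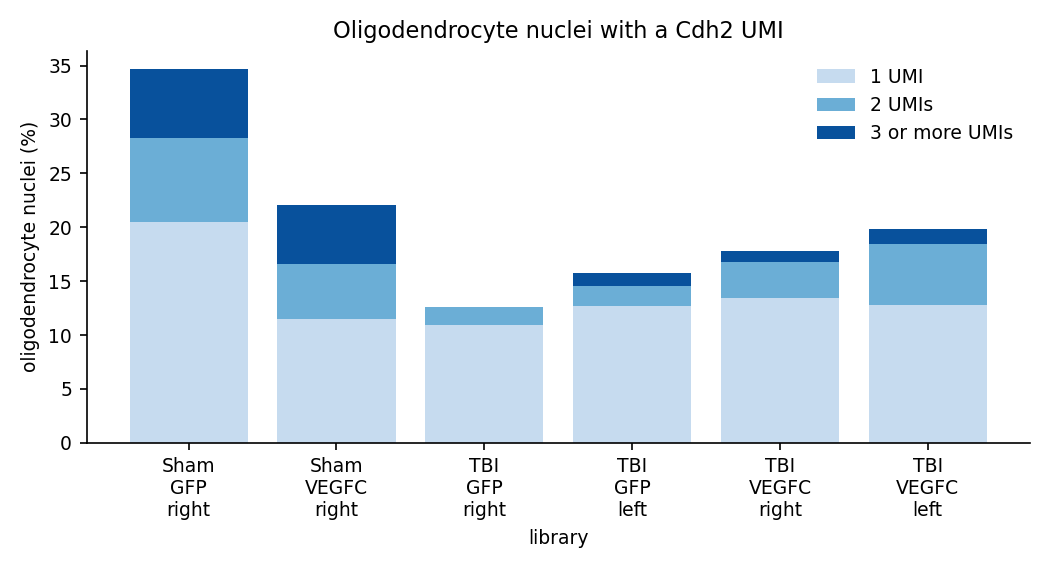
Percent of oligodendrocyte nuclei (vertical axis, from 0) with 1, 2, or 3 or more Cdh2 UMIs in each library, without thinning. Bars reach 34.6% and 22.0% in the sham libraries and 12.6% to 19.8% in the TBI libraries, and the darkest segment is empty in TBI GFP right.

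The labelled class held a defining gene of oligodendrocytes. Mbp, myelin basic protein of compact myelin, was at 3736 and 3766 CPM in the sham libraries and at 3678 to 4043 in the TBI libraries, which overlap. The 10 oligodendrocyte markers summed to 17949 and 17802 CPM in sham and 17082 to 18556 after TBI, which overlap too. Single markers of that list did not all overlap. Mog was at 1463 and 1429 CPM in sham and lower after TBI, at 1138 to 1349. Mag was at 943 and 1037 CPM in sham and higher after TBI, at 1059 to 1150. Markers of other cells were low by comparison. The sum of the 8 OPC (oligodendrocyte precursor cell) markers moved in the same direction as Cdh2, at 180 and 176 CPM in the sham libraries and 125 to 158 in the TBI libraries. Most of it was Olig1 (251 UMIs in all libraries) and Lhfpl3 (158). The levels of both overlapped between sham and TBI, as did those of Pdgfra (14 UMIs) and Cspg4 (32). None of the 2 OPC markers tested passed in TBI right against sham right. Without the 5% of nuclei with most markers of all other classes, the Cdh2 fold was -1.33 (edgeR adjusted p = 4.19e-07). That ranking summed the lists of all other classes, with Enpp2 at 1546 to 1690 CPM among them. It therefore did not single out nuclei with OPC markers. The 9 astrocyte markers summed to 313 and 331 CPM in the sham libraries and to between 254 and 400 in the TBI libraries. The 8 excitatory neuron markers gave 319 and 307 CPM against 326 to 407, so every TBI library lay above both sham libraries. Of this sum, Prox1 alone made up 205 to 221 CPM. All 5 excitatory markers tested had folds above 0 in TBI right against sham right, and none passed. Choroid plexus markers summed to 1983 to 2572 CPM, of which most was Enpp2 and Ttr, with Otx2 at 0 in each library. Median depth per oligodendrocyte nucleus was 1334 and 1207 UMIs in the sham libraries and 1251 to 1409 in the TBI libraries. The antisense gene Gm15485, which overlaps Cdh2 on mouse chromosome 18, had 2 UMIs in sham GFP right oligodendrocytes and 0 in the other libraries.

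The Cdh2 call in TBI right against sham right held in each of 17 alternative settings, with folds from -1.86 to -0.95 and adjusted p up to 0.0342, the DESeq2 value. Its size rested on which libraries entered. Without the sham GFP library it was -0.95, and without the TBI GFP right library it was -1.02. Without the sham VEGFC library it was -1.86. The spread in this class was taken almost wholly from the trend over genes, so the small p says little about how far the libraries of a group disagree. An exact two-sided permutation test of the 2 sham against the 4 TBI levels gave p = 0.133, the smallest it can give. The left-side fall did not pass with DESeq2 (adjusted p = 1), among nuclei with at least 1500 UMIs (a log2 fold of -0.52, adjusted p = 0.807), or without the sham GFP (-0.64, adjusted p = 0.297) or TBI GFP left library (-0.96, adjusted p = 0.059).

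VEGFC against GFP gave Cdh2 in oligodendrocytes a log2 fold of 0.13 (SE 0.14, edgeR adjusted p = 0.969), and 0.125% of genes passed in this class. Left against right TBI gave 0.35 (SE 0.18, edgeR adjusted p = 0.998), where 0.0249% passed. The VEGFC effect after TBI minus that after sham was 0.94 (SE 0.27, edgeR adjusted p = 0.129), where 0.17% of genes passed. In levels, VEGFC stood below GFP after sham and above GFP on both sides after TBI, but this difference did not pass over all genes.

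In astrocytes Cdh2 was at 445 and 463 CPM in the sham libraries and 379, 432, 419 and 414 in the TBI libraries. These groups did not overlap, but the log2 fold of TBI right against sham right was -0.16 (SE 0.10, edgeR adjusted p = 0.824). Excitatory neurons had 330 and 312 CPM in the sham libraries against 274 to 287 after TBI, groups that did not overlap either. Their log2 fold was -0.18 (SE 0.09, edgeR adjusted p = 0.976). OPC had 207 and 271 CPM in the sham libraries and 209 to 284 after TBI, which overlap. The ratio of the oligodendrocyte to the astrocyte level was 0.90 and 0.66 after sham and 0.27, 0.35, 0.40 and 0.44 after TBI. For each of the 6 classes with Cdh2 UMIs in each library, this ratio was higher in both sham libraries than in all 4 TBI libraries, with mean log2 differences from -1.31 to -1.08. The exact permutation p was 0.133 in each, again the smallest this test can give with 2 against 4 libraries. All 6 ratios share the same oligodendrocyte levels, so they do not count as separate results. Cdh2 passed in no class other than oligodendrocytes and in none of the 17 clusters tested.

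By mean level over the 6 libraries, Cdh2 was highest in astrocytes (425 CPM ± 28.9, SD, n = 6). Mixed neurons followed at 319 ± 32.4 and excitatory neurons at 296 ± 20.8, which overlap each other. OPC at 245 ± 31.8 and inhibitory neurons at 236 ± 12.1 overlapped too. Oligodendrocytes at 218 ± 112 had by far the widest spread, which takes in the range of both. Choroid plexus epithelium stood at 68.1 ± 9.20, below every oligodendrocyte library, and microglia and fibroblasts at 24.3 ± 13.3 and 21.3 ± 14.1 could not be separated. Across the 22 neuron clusters with at least 100 nuclei, Cdh2 ran from 163 CPM in Inhibitory neuron 8 to 535 in Excitatory neuron 5, a ratio of 3.29. Over the 32 clusters, the members whose log2 level followed Cdh2 most closely were Pcdh9 (Pearson r = 0.72), Pcdh17 (0.70), Pcdh11x (0.65), Cdh10 (0.58) and Pcdh1 (0.57). Among genes with a mean of at least 20 CPM they were C130071C03Rik (0.85), Fam171b (0.82), Sybu (0.82), Phyhipl (0.81) and Map2 (0.80). These correlations describe clusters that share libraries and differ in depth.

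No other member passed in oligodendrocytes. Among the 14 tested, 7 folds in TBI right against sham right were above 0 and 7 below, with a median of -0.01 beside 0.00 for all 8025 genes. Pcdh9, a delta1 protocadherin, was at 7775 CPM ± 358 (SD, n = 6) and had a log2 fold of 0.05 (SE 0.09). Cdh19 and Cdh20, type II cadherins highest in this class, had folds of 0.08 (SE 0.13) and 0.06 (SE 0.12). Cdh10, at 554 CPM ± 39.8, had 0.16 (SE 0.13). After Cdh2 the smallest p-values belonged to Pcdh15, with a fold of -0.42 (SE 0.16, edgeR adjusted p = 0.671), and Cdh13, with 1.29 (SE 0.61, edgeR adjusted p = 0.836) on 53 UMIs in all libraries. Neither passed. Nearest to passing for VEGFC against GFP were Cdh6 at 0.74 (SE 0.28), Cdh8 at 0.43 (SE 0.17) and Cdh20 at 0.21 (SE 0.10), with edgeR adjusted p from 0.728 to 0.793. For left against right TBI they were Cdh2 itself, Pcdh7 and Cdh13, each at an edgeR adjusted p of 0.998.

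**Figure D3:**
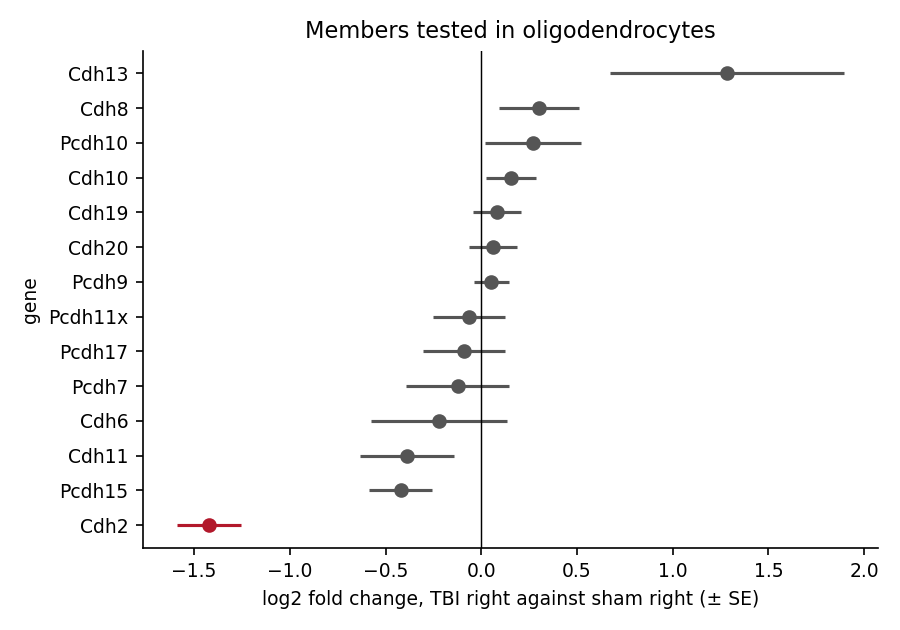
Log2 fold change of TBI right against sham right (horizontal axis, bars ± SE) for the 14 members tested in oligodendrocytes, red where the edgeR adjusted p was under 0.05. Cdh2 at -1.42 is the only red point, and Cdh13 at 1.29 has the widest bar.

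Among the genes that work with cadherins, none passed in oligodendrocytes, where at most 0.17% of all genes passed in any comparison. Of the catenins 10 of 11 were tested and none passed in TBI right against sham right, where 8 folds were above 0. Ctnnb1, beta-catenin itself, had 0.81 (SE 0.36, edgeR adjusted p = 0.814) and Ctnnd2, delta-catenin, 0.39 (SE 0.18, edgeR adjusted p = 0.83). None of 10 tested processing genes passed, with Pcsk6, a proprotein convertase, nearest at 0.50 (SE 0.20, edgeR adjusted p = 0.686), and Adam10, which sheds the N-cadherin ectodomain, at -0.24 (SE 0.16). None of 8 nectin and junction partners, 3 other cadherin superfamily genes and 13 protocadherin partners passed. Over all 9 classes, 0 of 402 pairs of listed gene and class passed for TBI right against sham right, VEGFC against GFP or left against right TBI. Over all genes 0.0782%, 0.0281% and 0.0318% of pairs passed in these comparisons, so 0 calls says little about the listed genes. In the difference between VEGFC effects 2 of 427 passed, both in mixed neurons, where 0.221% of pairs passed over all genes and classes. These were Wasf1, of the actin-regulating WAVE complex that protocadherins recruit, at 2.10 (SE 0.47, edgeR adjusted p = 0.00813) and Ptprm, a phosphatase that binds cadherins, at -1.41 (SE 0.37, edgeR adjusted p = 0.0372), in a fit where 1.19% of genes passed. Clstn2, calsyntenin-2 of postsynaptic membranes, fell by 1.39 (SE 0.28, edgeR adjusted p = 0.0107) in astrocytes in TBI left against sham right, where 0.287% of genes passed.

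Over the 9 classes, 80 of the 91 members passed the filter on low counts in at least 1 class and 11 in none, among them Cdh1, Cdh16, Cdh17, Cdh26 and Pcdh12. Of 227 pairs of member and class, 2 passed in TBI right against sham right, both lower, where 0.0782% of pairs passed over all genes. These were Cdh2 in oligodendrocytes and Cdh18 in astrocytes. VEGFC against GFP had 0 passing members where 0.0281% of pairs passed, while DESeq2 passed 0 and 20 of the 227 (8.81%) had an unadjusted p under 0.05, beside 5.41% of pairs over all genes. Left against right TBI had 1, where 0.0318% passed, and TBI left against sham right had 2, where 0.104% passed. The difference between VEGFC effects had 1 of 257 pairs, where 0.221% passed. The median member fold in TBI right against sham right lay between -0.37 in microglia, with 2 members tested, and 0.25 in choroid plexus epithelium, with 6.

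Cdh18 (chr15:22549022-23474418, mm10, plus strand), a type II cadherin, was at 59.1 and 29.8 CPM in the sham libraries' astrocytes. The TBI libraries had 26.9 in GFP right, 31.3 in GFP left, 17.0 in VEGFC right and 26.5 in VEGFC left. The groups overlapped, because sham VEGFC lay below TBI GFP left. The fall in TBI right against sham right was 0.96 (SE 0.22, edgeR adjusted p = 0.0225), with 0.326% of 12883 genes passing in astrocytes. One nucleus of sham GFP held 18 of its 86 UMIs. That nucleus had 7190 UMIs where the median was 1663, a doublet score of 0.095, and 8 UMIs of excitatory neuron markers against 4 of astrocyte markers. Without the nucleus with most Cdh18 UMIs in each library the fold was -0.81 (edgeR adjusted p = 0.188), and without the sham GFP library it was -0.60 (adjusted p = 0.588). The call also ended among nuclei with a doublet score of at most 0.05 (adjusted p = 0.33) and, narrowly, without the 5% of nuclei with most markers of other classes (0.0505). It ended too with DESeq2, without either TBI right library, with equal numbers of nuclei (0.103), and with left and right TBI as replicates (0.0822).

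Pcdh9 (chr14:93013410-93890679, minus strand) was scarce in microglia, with 5 and 1 UMIs in the sham libraries and 1 and 2 in TBI GFP right and VEGFC right. The left TBI libraries had 22 and 51. Left against right TBI gave a log2 fold of 3.87 (SE 0.59, edgeR adjusted p = 1.93e-05), with 0.764% of 2093 genes passing, and TBI left against sham right gave 3.08 (SE 0.53, edgeR adjusted p = 0.000207), with 1% of genes passing. A single nucleus held 81.8% of the UMIs in TBI GFP left and 76.5% in TBI VEGFC left. Those nuclei had 6860 and 11623 UMIs where the medians were 1200.5 and 1392.5. The second held 18 UMIs each of excitatory neuron and choroid plexus markers and 13 of OPC markers against 2 of microglial markers, and the first held 11 of inhibitory neuron and 11 of microglial markers. Without the top nucleus in each library too few Pcdh9 UMIs were left for a test. Their level was then 68.8 and 57.8 CPM on the left, 0 and 11.8 in right TBI and 41.0 and 0 in sham. The left against right call ended with DESeq2 (adjusted p = 0.314), limma-voom (0.111) and without TBI GFP right, TBI VEGFC right or TBI VEGFC left. The call against sham ended with DESeq2 (0.999), limma-voom (0.56) and without TBI VEGFC left (0.191).

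Cdh13 (chr8:118283733-119324921, plus strand), T-cadherin, is anchored to the membrane without a cytoplasmic tail. It was the 1 member to pass in the difference between VEGFC effects, among 257 pairs of member and class (0.389%, beside 0.221% of pairs over all genes). In excitatory neurons its level was 143 CPM in sham GFP and 117 in sham VEGFC. In TBI it was 111 in GFP right and 120 in GFP left, against 154 in both VEGFC libraries. The log2 difference of VEGFC effects was 0.76 (SE 0.12, edgeR adjusted p = 0.0197), where 0.146% of 17111 genes passed, with the left and right TBI libraries taken as replicates. DESeq2 gave an adjusted p of 0.0975 and the fit without a filter on low counts 0.807. Sham had 1 library per vector. Cdh13 ran from 7.35 CPM in Excitatory neuron 6 to 542 in Excitatory neuron 8, so its class level depends on the mix of clusters in a library. The difference was not fitted within clusters, so a role of that mix was not tested.

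Among the 17 clusters large enough to test, 368 pairs of member and cluster were tested in each comparison. Pcdhb17, a clustered beta gene, rose in Excitatory neuron 2 in TBI right against sham right by 2.36 (SE 0.56, edgeR adjusted p = 0.021), where 0.142% of genes passed in this cluster and 0.0514% of pairs over all clusters. Its counts were 3 and 4 UMIs in the sham libraries and 19, 17, 18 and 11 in TBI GFP right, GFP left, VEGFC right and VEGFC left. Every TBI library lay above both sham libraries in CPM, but the call ended with DESeq2, limma-voom, library totals and without any 1 of the sham or right TBI libraries. In Excitatory neuron 9, Cdh13 fell by 1.39 in left against right TBI (SE 0.25, edgeR adjusted p = 0.00473), from 306 and 327 CPM on the right to 149 and 94.3 on the left. Cdh12 (chr15:20449265-21589533, plus strand) fell by 0.71 there (SE 0.16, edgeR adjusted p = 0.0219), from 1572 and 1158 to 981 and 697. These were 2 of the 18 members tested in a cluster where 1.31% of genes passed, against 0.0438% of pairs over all clusters. Both calls ended with DESeq2 and without TBI GFP right, TBI VEGFC right or TBI VEGFC left, and that of Cdh12 also without the top nucleus in each library (adjusted p = 0.0695). VEGFC against GFP had 0 of 368 pairs, where 0.0219% passed, while DESeq2 passed 0 and 47 (12.8%) had an unadjusted p under 0.05, beside 5.43% of pairs over all genes. This share lay above that of all genes in each other comparison of clusters too. It was 13.6% beside 5.09% in TBI right against sham right and 15.5% beside 5.48% in TBI left against sham right. Left against right TBI had 10.1% beside 3.93%.

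Excitatory neuron 9 supplied 2 of the 3 member calls in TBI left against sham right, where 1.5% of genes passed in it and 0.0972% of pairs over all clusters. Pcdh7, a delta1 protocadherin, stood at 461 and 381 CPM in sham and at 692 and 917 in left TBI, a rise of 0.98 (SE 0.21, edgeR adjusted p = 0.0157). Right TBI lay on both sides of sham, at 300 and 655 CPM. Pcdh17, a delta2 protocadherin, stood at 29.8 and 29.3 CPM in sham and at 86.5 and 94.3 in left TBI, a rise of 1.63 (SE 0.42, edgeR adjusted p = 0.05, just under the threshold). In Inhibitory neuron 6, Pcdh9 rose by 0.56 (SE 0.10, edgeR adjusted p = 0.0164; 0.0463% of genes passed), from 1628 and 1735 CPM to 2354 and 2524. The 3 calls ended with DESeq2 and without TBI VEGFC left. That of Pcdh7 also ended without sham VEGFC (a fold of 0.51) or TBI GFP right, that of Pcdh17 with limma-voom and without sham VEGFC or any 1 of the TBI libraries, and that of Pcdh9 without either sham library. Without the top nucleus in each library the Pcdh9 fold was 0.45 (adjusted p = 0.145). Excitatory neuron 9 had 112 and 88 nuclei in the left TBI libraries and 40 to 86 in the others.

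Levels differed widely between classes. In glia, Cdh19 was at 664 CPM ± 69.5 (SD, n = 6) in oligodendrocytes, 385 ± 41.9 in astrocytes and 0.85 ± 0.25 in excitatory neurons. Pcdh9 was at 7775 ± 358 in oligodendrocytes and 4872 ± 188 in OPC. Pcdh15, best known as part of the tip link of hair cells, reached 3024 ± 180 in OPC against 227 ± 34.9 in oligodendrocytes. OPC were the highest class for 13 members, more than any other class among members with at least 10 CPM. The share of all genes highest in OPC was not computed, and some of the leads were small. Cdh10 was at 675 CPM in OPC beside 669 in astrocytes, and Pcdhgc4 at 10.1 ± 7.56, with 0 in its lowest library. The 13 included the clustered Pcdhb9 at 41.1 ± 17.9 and Pcdhb2 at 25.3 ± 5.21. Cdh23, the partner of Pcdh15 in the tip link, was at 542 ± 55.4 in microglia and at 13.3 in OPC, the next class.

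Outside neurons and glia, Cdh3 (P-cadherin of epithelia) was at 111 ± 27.9 CPM in choroid plexus epithelium against 3.23 in fibroblasts. Cdh5, VE-cadherin of endothelial junctions, was at 138 ± 44.5 in the fibroblast class against 1.06 in OPC. Cdh1, E-cadherin, averaged 23.0 ± 35.6 there on 21 UMIs in all, of which 14 came from 1 library.

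**Figure D4:**
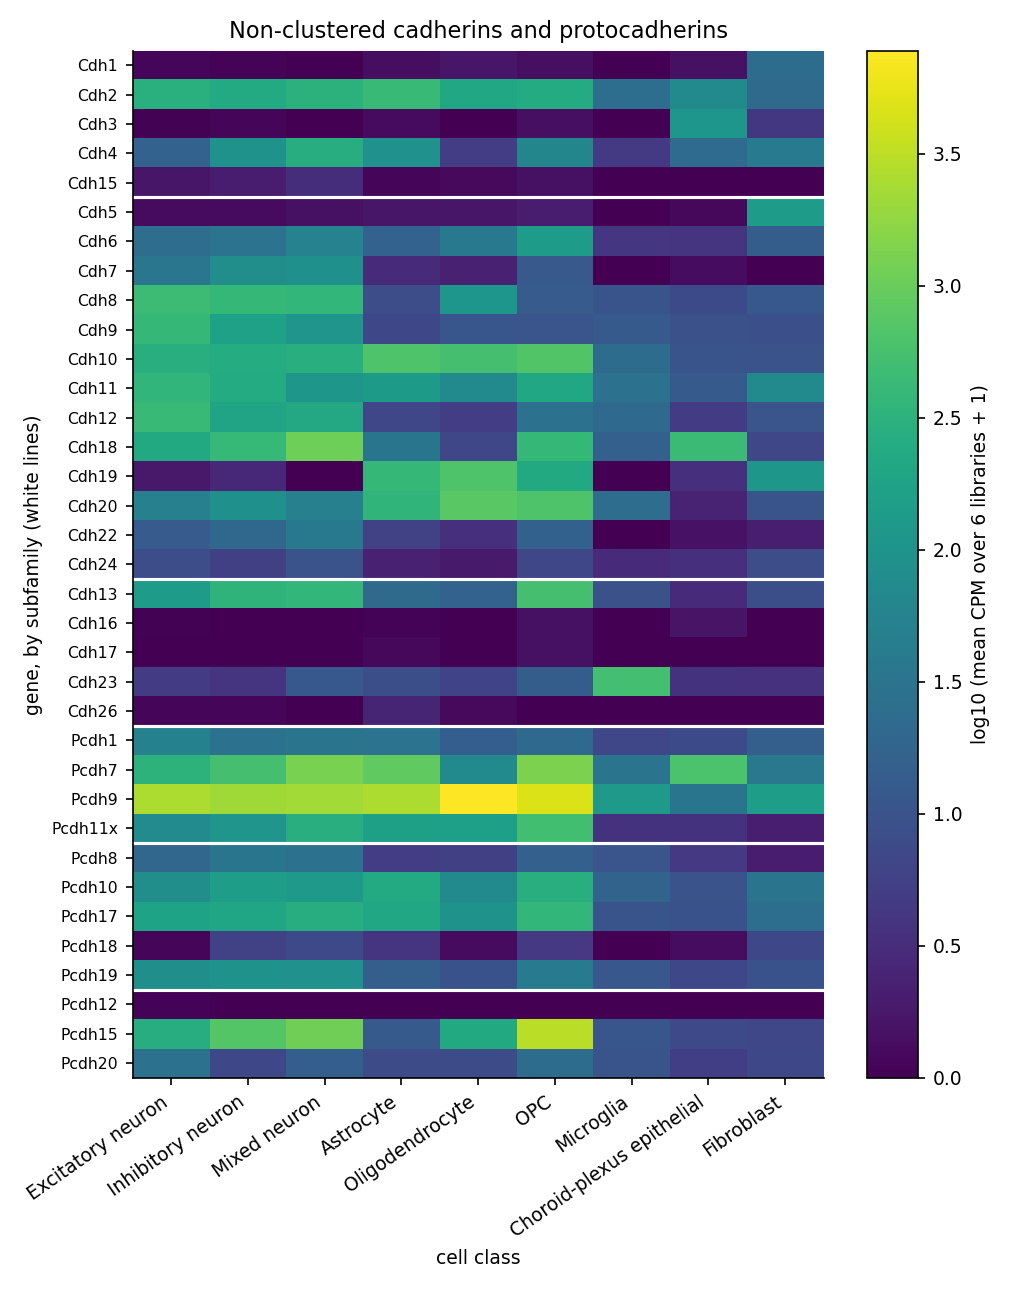
Mean level over the 6 libraries, as log10 of CPM + 1 (colour), of the 35 members outside the clusters (rows, split by subfamily with white lines) in the 9 classes (columns). Cdh2 is spread over neurons, astrocytes and the oligodendrocyte lineage, while Cdh3, Cdh5 and Cdh23 each stand out in 1 class.

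Neuron clusters differed by type II cadherin. Among the 22 clusters with at least 100 nuclei, Cdh18 ran from 2.58 CPM in Inhibitory neuron 6 to 2081 in Excitatory neuron 5, a ratio of 805. Cdh8 was at 941 ± 39.7 in Excitatory neuron 3 and at 20.3 ± 11.3 in Excitatory neuron 5. Cdh9, known from synapses of dentate granule cells with CA3, was at 912 ± 53.1 in Excitatory neuron 2 and at 23.2 ± 5.84 in Excitatory neuron 1. Cdh12 was highest in Excitatory neuron 9 at 1147 ± 293, and Cdh11 in Excitatory neuron 12 at 1156 ± 160. Among protocadherins, Pcdh11x was highest in Excitatory neuron 9 at 534 ± 42.8 and Pcdh8, an activity-regulated delta2 gene, in Excitatory neuron 15 at 414 ± 157, a cluster of 55 nuclei. Cdh4, R-cadherin, and Cdh18 were highest by class in mixed neurons, at 261 ± 45.1 and 1061 ± 185. Genes of the cells that were clustered helped form these clusters, so these levels are descriptions and were not tested.

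**Figure D5:**
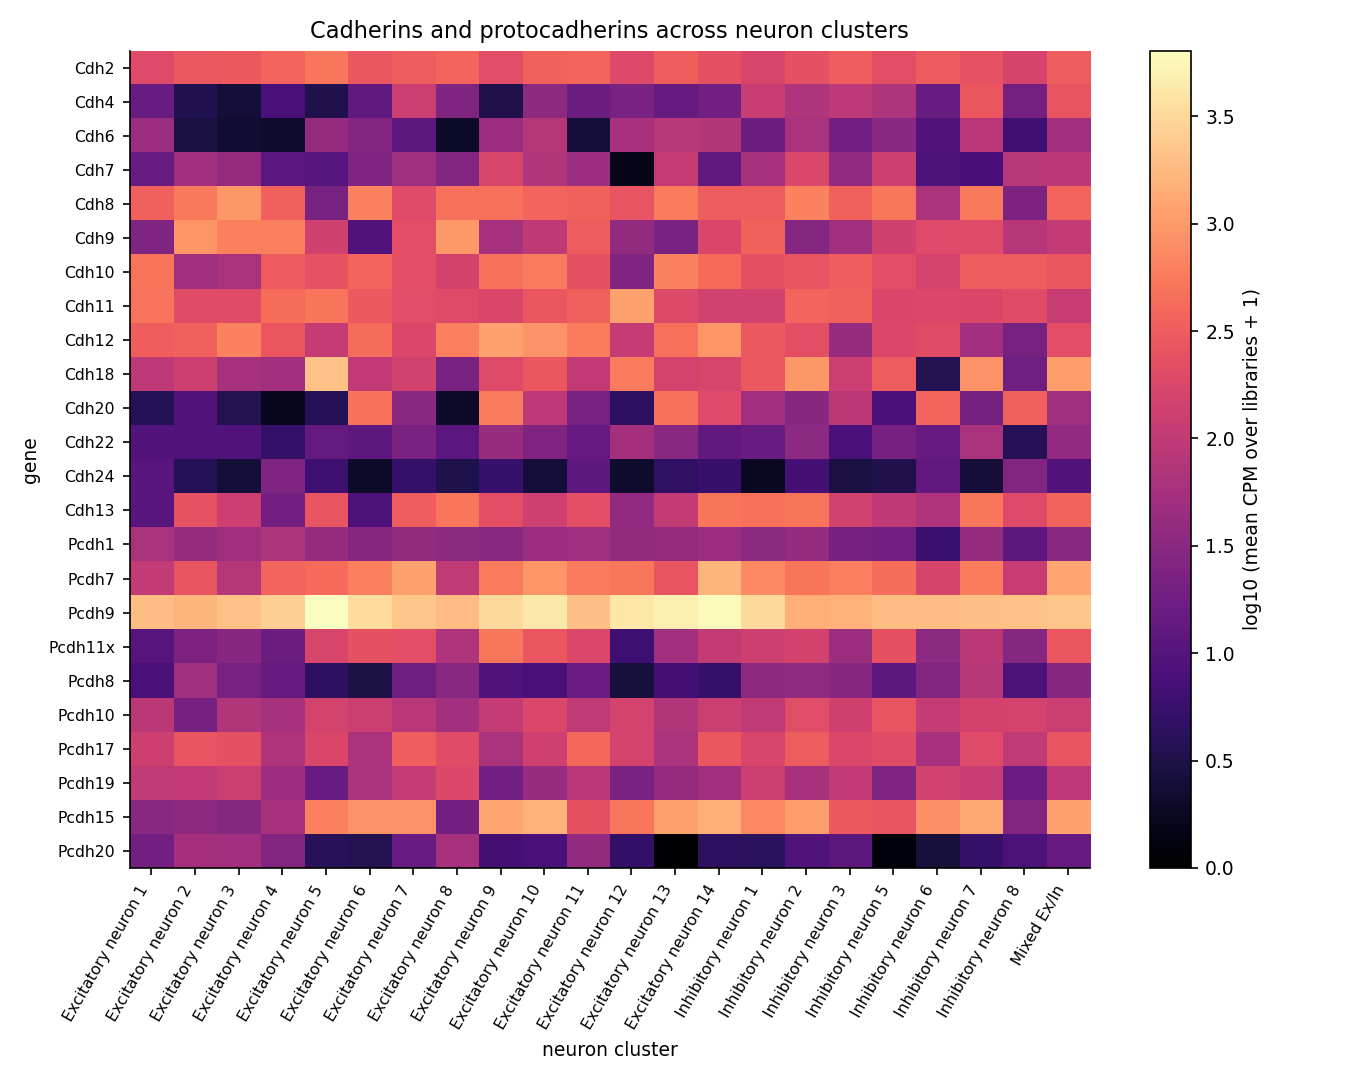
Mean level as log10 of CPM + 1 (colour) of the 24 members outside the clustered families with at least 20 CPM in some cluster (rows) in the 22 neuron clusters with at least 100 nuclei (columns). Cdh2 varies little along its row, by a ratio of 3.29, while Cdh18 changes from 2.58 CPM to 2081.

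The alpha family was higher in neurons and OPC than in mature glia. Its sum was 23.2 CPM ± 1.05 (SD, n = 6) in excitatory and 29.8 ± 3.69 in inhibitory neurons, 25.3 ± 4.80 in OPC, and 2.66 ± 1.37 and 2.92 ± 2.59 in astrocytes and oligodendrocytes. The beta sum was 181 ± 28.8 in OPC, 121 ± 9.65 in astrocytes and 59.1 ± 7.91 in excitatory neurons. The gamma sum was 148 ± 48.0 in fibroblasts, 122 ± 5.33 in astrocytes, 119 ± 15.3 in OPC, 81.1 ± 10.4 in oligodendrocytes and 48.7 ± 2.16 in excitatory neurons. In oligodendrocytes the gamma sum was 83.9 and 74.9 CPM in the sham libraries and 68.9 to 94.1 in the TBI libraries, which overlap, unlike the levels of Cdh2.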

How the data were processed

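Nuclei of microdissected hippocampi were sequenced on the 10x platform (a 3' tag method), as the labels' protocols say. The submitters' processing notes list mm10, Cell Ranger 7.0.1 and Scanpy; none of the sources says whether counting used strand. The deposited matrix holds UMI counts per gene and nucleus. The authors' deposited table gives each nucleus its library, class, cluster and a doublet score, whose highest value was 0.099, and no doublet caller was run. Of the barcode sequences, 91 occurred in more than 1 library (182 nuclei). Libraries held 15358208 to 18379148 UMIs and 3676 to 6002 nuclei, and oligodendrocyte sums 413672 to 670396 UMIs.

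Counts were summed per library in 9 classes and in 17 clusters with at least 20 nuclei in every library. They were tested on the whole table with edgeR 4.0.16 (filterByExpr, TMM, quasi-likelihood test) in R 4.3.3, with terms for surgery and side together and vector and 2 residual degrees of freedom. P-values were adjusted by Benjamini-Hochberg over genes for each class and comparison, and 0.05 was the threshold. The difference between VEGFC effects was fitted with left and right TBI as replicates. SE is the absolute log2 fold over the square root of F. DESeq2 1.42.0 and limma-voom 3.58.1 were alternatives. In data simulated for VEGFC against GFP in oligodendrocytes (8025 genes), 88% of 100 genes changed by a log2 fold of 1 and 100% of 100 changed by 2 were recovered. Among unchanged genes 8 were called. The changed genes had a mean of at least 20 counts, and the simulated spread followed the trend over genes. Recovery therefore does not measure how the test handles spread between real libraries. Levels are UMIs per 1e+06 UMIs of the class sum (CPM), and positions are from GENCODE M21. Intervals cover counting error only.

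Members and gene lists were chosen with earlier results of these data known. Text names Cdh2 in each class, each member past the threshold, up to 3 members highest in a class (at least 10 CPM) or 1 in a neuron cluster (at least 20 CPM, by ratio to the next), the 3 smallest p-values in oligodendrocytes and the 5 patterns nearest Cdh2. Members set apart by their range over neuron clusters (Cdh8, Cdh9, Cdh12, Cdh18), and the pathway genes named, were chosen after their values were seen.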

Additional observations from a re-analysis of the deposited data

Results flagged for a closer look

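The VEGFC effect on Cdh13 in excitatory neurons differed between sham and TBI by 0.76 on the log2 scale, which passed a test of the difference itself (edgeR adjusted p = 0.0197). The log2 ratio of VEGFC to GFP was -0.29 after sham, 0.48 in TBI right and 0.36 in TBI left. Each ratio compares 1 library with 1 other, and the difference was not fitted within clusters.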

How the results depend on the processing

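Counts of members past the threshold were small and moved with the setting. In classes, TBI right against sham right (2) gave 4 with no filter on low counts and 1 with DESeq2, equal nuclei, left and right TBI as replicates, a doublet score of at most 0.05, or without the 5% of nuclei with most markers of other classes. It gave 2 to 3 when libraries were left out in turn. Left against right TBI (1) gave 2 with no filter, 0 with DESeq2, limma-voom, nuclei of at least 1500 UMIs, the 5% setting and the doublet setting, and 0 to 2 leaving out libraries. The difference between VEGFC effects (1) gave 2 with library totals and limma-voom and 0 with DESeq2. TBI left against sham right (2) gave 4 with no filter, 0 with DESeq2 and nuclei of at least 1500 UMIs, 1 with the 5% and doublet settings, and 1 to 5 leaving out libraries. VEGFC against GFP (0) gave 0 to 4 leaving out libraries, with 4 without sham VEGFC. In clusters, VEGFC against GFP (0) gave 6 with no filter and 0 to 13 leaving out libraries. TBI right against sham right (1) gave 2 with no filter, 0 with library totals, DESeq2 and limma-voom, and 1 to 10. Left against right TBI (2) gave 4 with no filter and limma-voom, 0 with DESeq2, and 0 to 6. The highest cluster counts (13, 10 and 6) all came without sham VEGFC. The cause was not tested. The share of oligodendrocyte nuclei with a Cdh2 UMI was 15.6% at 1000 UMIs per nucleus and 19.9% without thinning. The doublet and top-nucleus settings were added after seeing the data. The doublet setting could not be fitted in fibroblasts and microglia. Without the surgery and side term, or with left and right TBI as replicates, left against right TBI has no value. No paired analysis by replicate number was possible because the groups share none. With the vector term in the fit, left and right TBI libraries were compared within the same vector.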
